A study of Mus musculus with 2 samples.

Results

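Mir183, Mir96 and Mir182 are 3 microRNA genes that lie together on mouse chromosome 6, and their output was measured in the liver of B6NCrl mouse embryos at embryonic day 11.5. The members were the counted genes whose Ensembl identifier carries one of these symbols in the GENCODE mouse annotation, which gave 3 of 1973 counted genes. Both libraries held small RNA of healthy liver from pools of male and female embryos, with no treatment or mutation given in the labels. They formed 1 group with 2 biological replicates and no contrast between conditions. The pool of replicate 1 came from 109 embryos, and the labels give no pool size for replicate 2. Replicate 1 had 3344673 reads assigned to microRNA genes on the strand of the gene and replicate 2 had 1584499. Levels are given as counts per 1000000 assigned counts (CPM) on the strand of the gene, and the upper limit behind a count of 0 (3 counts) is 0.897 CPM for replicate 1 and 1.89 CPM for replicate 2.

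A microRNA gene is transcribed into a long precursor, from which a hairpin is cut and then trimmed to short mature strands. A mature strand binds messenger RNAs mainly through its seed, bases 2 to 8 from its 5′ end, and lowers their translation and stability. Mir183, Mir96 and Mir182 are known as a sensory cluster, transcribed as 1 precursor in photoreceptors and in hair cells of the inner ear, where changes in the seed of Mir96 cause hearing loss in mice and humans. The cluster is also found in other epithelia and in neuroendocrine cells, and Mir182 is induced in activated mouse T cells, where it targets Foxo1.

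The hairpins over which reads were counted are shown because a count for a gene joins reads from both of its arms. The sequences are from RefSeq, assembly GRCm38.p6, written 5′ to 3′ along the minus strand. Capitals mark the mature 5p and 3p strands, in that order.
Mir183 hairpin: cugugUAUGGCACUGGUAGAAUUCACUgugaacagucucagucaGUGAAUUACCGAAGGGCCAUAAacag
Mir96 hairpin: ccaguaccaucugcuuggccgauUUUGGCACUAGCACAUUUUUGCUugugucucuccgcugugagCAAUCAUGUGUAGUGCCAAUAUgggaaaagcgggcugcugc
Mir182 hairpin: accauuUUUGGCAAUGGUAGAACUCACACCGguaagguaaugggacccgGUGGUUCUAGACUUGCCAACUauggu

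The 5p strands, known as the main products of these hairpins, are set side by side with the seed in capitals. The 5p strand of miR-1271 is added because it was the only other mature strand, of 1738 in the RefSeq table, whose bases 2 to 8 matched those of a member's 5p strand.
mmu-miR-183-5p: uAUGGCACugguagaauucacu
mmu-miR-96-5p: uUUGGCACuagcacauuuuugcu
mmu-miR-182-5p: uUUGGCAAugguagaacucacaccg
mmu-miR-1271-5p: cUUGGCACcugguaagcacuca

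The seeds of all 3 members differed, by single bases where Mir96 was one of the pair. Counted from 1 at the 5′ end, miR-96-5p and miR-182-5p differed within the seed by C8A, and miR-183-5p and miR-96-5p by A2U. The first 7 bases of miR-96-5p and miR-182-5p were the same, and miR-1271-5p shared bases 2 to 7 with both. Over the whole strand the closest pair was that of the outer genes of the cluster. Over 22 aligned bases, miR-183-5p and miR-182-5p were identical at 18 and differed by A2U, C8A, U17C and U22A. Over 23 bases miR-96-5p was identical to miR-182-5p at 12, and over 22 bases miR-183-5p was identical to miR-96-5p at 13. The counted gene of miR-1271, Gm24195 (ENSMUSG00000080454.2) on chromosome 13, had 0 counts in both libraries. As counted, its level was thus below the limits given above, while Mir96, which carries the same seed, was well above them. Reads that match several places can be lost, and whether this applies to Gm24195 is not given here.

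Each member could be told apart from the other counted genes that were searched. The longest run of bases that a hairpin shared with another counted gene, on either strand, was 14 for Mir183, 11 for Mir96 and 11 for Mir182, among 1894 hairpins searched. None of the members was among the 923 counted genes that share 20 or more consecutive bases with another counted gene, for which reads matching several places can be lost. Places outside the counted genes were not searched. On mm10, Mir183 (ENSMUSG00000065619.2) lies at 30169668 to 30169737, Mir96 (ENSMUSG00000065586.1) at 30169446 to 30169551 and Mir182 (ENSMUSG00000076361.1) at 30165918 to 30165992, all on the minus strand of chromosome 6. In the direction of transcription Mir183 comes first, Mir96 follows after a gap of 116 bases, and Mir182 after a further 3453 bases. In GENCODE M21 each is a single-exon microRNA gene, and 0 other genes overlap the span of 3820 bases. The nearest genes are Rncr4, a long noncoding RNA on the plus strand that begins 3155 bases from Mir183, and Nrf1, the gene of a respiratory transcription factor, which ends 12459 bases from Mir182.

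All 3 members were expressed in the embryonic liver at intermediate levels. Mir182 was the highest in both libraries, Mir183 stood in the middle and Mir96 was the lowest. For Mir182, replicate 1 gave 8000 counts and replicate 2 gave 2081, which is 2392 CPM (95% exact Poisson interval 2340 to 2445) and 1313 CPM (1258 to 1371). Its mean was 1853 ± 763 CPM (SD, n = 2), with rank 73 in replicate 1 and 97 in replicate 2 among all counted genes. Its 2 libraries stood far apart, and their counting intervals did not touch.

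Mir183 had 3055 counts in replicate 1 and 1655 in replicate 2. This is 913 CPM (881 to 946) and 1044 CPM (995 to 1096), with a mean of 979 ± 92.7 CPM (SD, n = 2) and ranks 121 and 108. Here replicate 2 was the higher library. Mir96, the member with the seed variants known from deafness, had 1854 counts in replicate 1 and 697 in replicate 2, or 554 CPM (529 to 580) and 440 CPM (408 to 474). Its mean was 497 ± 80.9 CPM (SD, n = 2), and its ranks were 141 and 145. The members' ranges over both libraries did not overlap: the lowest value of Mir182 lay above the highest of Mir183, and the lowest of Mir183 above the highest of Mir96. With 2 libraries no exact paired permutation test of such an order can give a two-sided p below 0.5, so the order rests on the values. Intervals cover counting error only, since each is computed from the counts of 1 library. No molecular identifiers are described for these reads, so copies of 1 molecule cannot be told apart and the intervals can be too narrow.

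**Figure D1:**
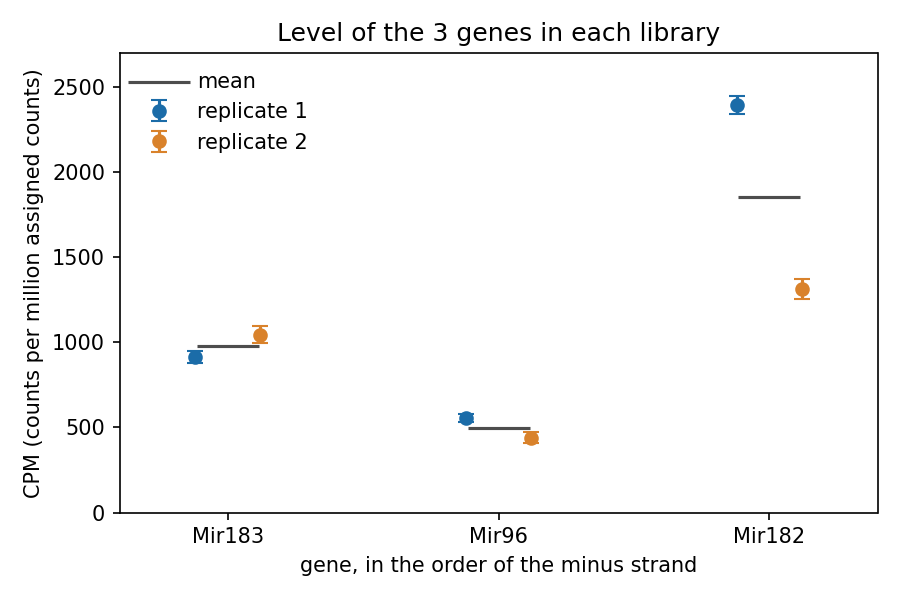
CPM on the strand of the gene for Mir183, Mir96 and Mir182, in genomic order along the minus strand. Points are single libraries with 95% exact Poisson intervals and grey lines are means of both. Mir182, at 2392 and 1313 CPM, stands above Mir183 in both libraries, and Mir96, at 554 and 440 CPM, stands below it.

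Together the cluster held 12909 counts in replicate 1 and 4433 in replicate 2. This is 0.386% of assigned counts (95% exact Clopper-Pearson interval 0.379 to 0.393) and 0.280% (0.272 to 0.288), with a mean of 0.333 ± 0.0751% (SD, n = 2). Every member lay above 264 CPM, the median mean level of the 347 detected genes, those that reached 10 counts in each library, and the mean of Mir182 lay above their upper quartile of 1732 CPM, with replicate 1 above it and replicate 2 below. In a bulk sample, fewer cells of a type and less RNA per cell cannot be told apart, so these levels do not show which liver cells held the RNA.

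The output of the 3 genes was unequal and not in the order of their place on the chromosome. Mir182, the last of the 3 along the minus strand, gave 2.62 times the counts of Mir183 in replicate 1 (95% exact interval 2.51 to 2.73) and 1.26 times in replicate 2 (1.18 to 1.34). Mir182 over Mir96 was 4.31 (4.10 to 4.54) in replicate 1 and 2.99 (2.74 to 3.26) in replicate 2. Mir183 over Mir96, the 2 neighbours 116 bases apart, was 1.65 (1.55 to 1.75) and 2.37 (2.17 to 2.60). Each of these ratios stayed on the same side of 1 in both libraries and had counting intervals that did not overlap between them.

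A mature microRNA gives 1 short read whatever the length of its hairpin, so CPM was kept as the scale. Per base of the annotated gene (70 bases for Mir183, 106 for Mir96 and 75 for Mir182), the order was the same. The per-base count ratio of Mir182 over Mir183 was 2.44 in replicate 1 and 1.17 in replicate 2, and that of Mir183 over Mir96 was 2.50 and 3.60. The longer annotated hairpin of Mir96 thus widened its distance below the other members on the per-base scale.

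As shares of the cluster's own counts, Mir182 made up 62.0% in replicate 1 (61.1 to 62.8) and 46.9% in replicate 2 (45.5 to 48.4). Mir183 made up 23.7% (22.9 to 24.4) and 37.3% (35.9 to 38.8). Mir96 held 14.4% (13.8 to 15.0) and 15.7% (14.7 to 16.8), and its intervals in the libraries overlapped. Such overlap does not show that the shares were equal, and their difference was not tested. The difference in shares between the libraries was largest in the outer genes: Mir182 took more of the counts in replicate 1 and Mir183 more in replicate 2. Means over libraries were 54.5 ± 10.6% for Mir182, 30.5 ± 9.66% for Mir183 and 15.0 ± 0.962% for Mir96 (SD, n = 2).

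**Figure D2:**
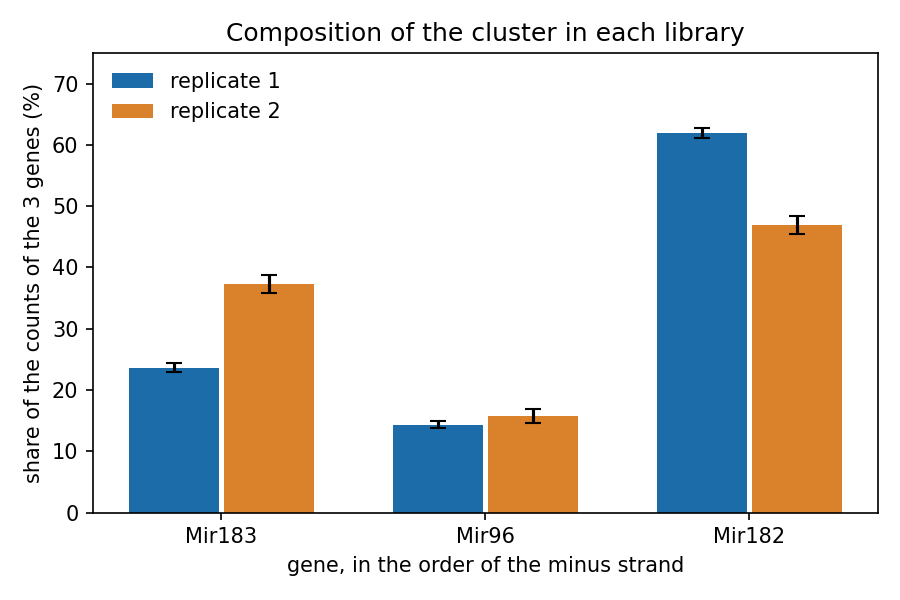
Share of each gene in the summed counts of Mir183, Mir96 and Mir182, in percent, for replicate 1 and replicate 2. Bars start at 0 and whiskers are 95% exact Clopper-Pearson intervals. Mir182 holds 62.0% in replicate 1 and 46.9% in replicate 2, and Mir96 holds 14.4% and 15.7%.

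Between the libraries the members did not move as a block. The ratio of replicate 1 over replicate 2, scaled by the trimmed mean of M values (TMM) in edgeR, was 0.80 on the log2 scale for Mir182, 0.27 for Mir96 and -0.26 for Mir183. In a two-sided exact binomial test of counting noise with Benjamini-Hochberg adjustment over 454 genes, the adjusted p was 3.88e-124 for Mir182, 5.74e-05 for Mir96 and 3.34e-08 for Mir183. All 3 passed an adjusted p of 0.05, as did 49.1% of the genes tested, so a difference beyond counting noise was common. Of the 3 members, 0 were called at 2-fold or more as well, against 7.27% of the genes tested. The test compares these 2 libraries, not conditions. With edgeR's exact test and an assumed biological coefficient of variation (BCV) of 0.2, the adjusted p-values of Mir182, Mir96 and Mir183 were 0.423, 0.873 and 0.884, and again 0 were called, against 0.22% of the genes tested (1 of 454).

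The median log2 ratio of the members was 0.27, against -0.01 over all 454 genes. The difference of Mir182 was the largest of the cluster. Over all 454 genes, 115 (25.3%) differed by more on the log2 scale, in either direction, as did 24 (12.8%) of the 187 whose counts averaged 500 or more. The 3 members spanned 1.06 on the log2 scale from Mir183 to Mir182, a 2.08-fold change of their ratio. The signs of all 3 log2 ratios were the same with TMM, total counts and DESeq2 size factors.

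**Figure D3:**
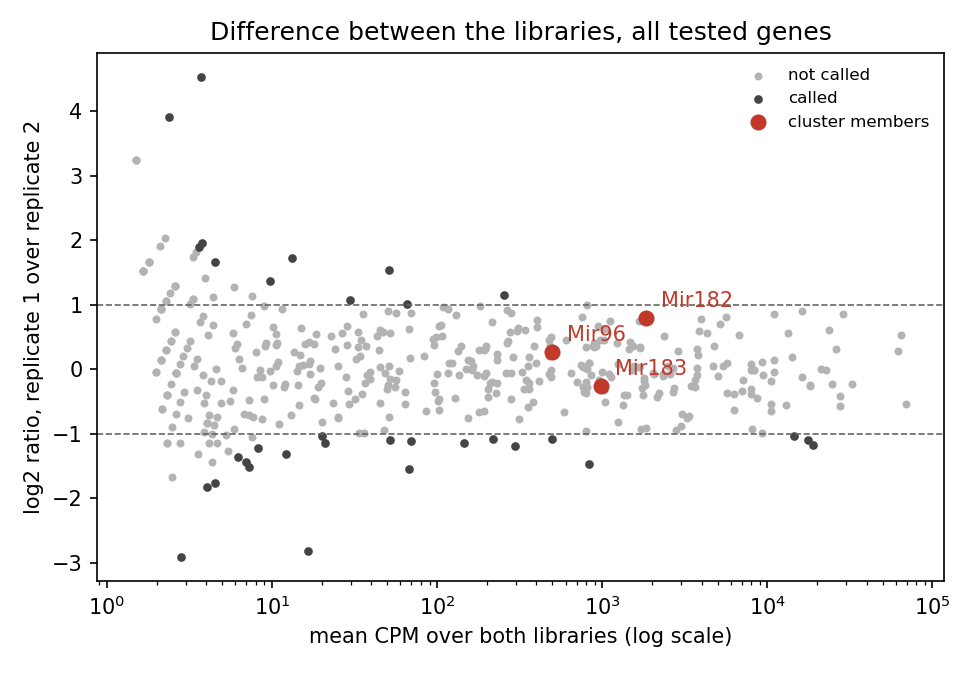
log2 ratio of replicate 1 over replicate 2 against mean CPM (log scale) for the 454 genes with at least 10 summed counts. Dark points were called, dashed lines mark 2-fold, and red points are the cluster members. Mir182 lies at 0.80, Mir96 at 0.27 and Mir183 at -0.26, all inside the dashed lines.

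Set beside other genomic clusters, the 3 genes spanned a small range of levels. Counted genes of 1 strand were joined when they lay within 10 kb of each other, and 14 clusters had 3 or more detected genes. The highest over the lowest mean CPM was 3.73 for Mir183, Mir96 and Mir182, and it ran from 7.95 to 1500 in the other 13 clusters, with a median of 67.4. Among the 4 other clusters with exactly 3 detected genes it ran from 11.1 to 112. These were the cluster of Mir200b, Mir200a and Mir429, a family that keeps cells epithelial, at 11.1, the cell-cycle cluster of Mir25 and Mir106b at 16.5, the cluster of Mir23a and Mir24-2 at 67.4, and the imprinted cluster of Mir341 and Mir370 at 112.

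The place of the cluster in this order depends on how clusters are drawn, and the comparison is a description with no test. Clusters with more genes have more chance of a wide range. In 9 of the other 13, at least 1 detected gene shares 20 or more bases with another counted gene. In the cluster from Mir23a to Mir24-2, all 3 detected genes do. Such genes can be counted too low. Without such genes, 1 of 10 other clusters had a smaller fold, the genes from Mir292 to Mir294, active in the early embryo, at 1.99. With joining within 5 kb, the genes from Mir500 to Mir362 had 3.47, and with at least 100 counts in both libraries, those from Mir292 to Mir294 had 1.99 and those from Mir363 to Mir106a had 2.34.

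The spread between libraries was not small in the same way. The range of the log2 ratios of replicate 1 over replicate 2 among the genes of the cluster was 1.06, against 0.51 to 0.87 in the 4 other clusters of exactly 3 detected genes. The value of 0.51 was that of Mir23a to Mir24-2, whose 3 detected genes all share bases with other counted genes. Over all 13 other clusters it was larger in 7 and smaller in 6. Without genes that share bases, the 3 genes from Mir292 to Mir294 had a range of 1.16. These ranges rest on 2 libraries and were not tested.

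**Figure D4:**
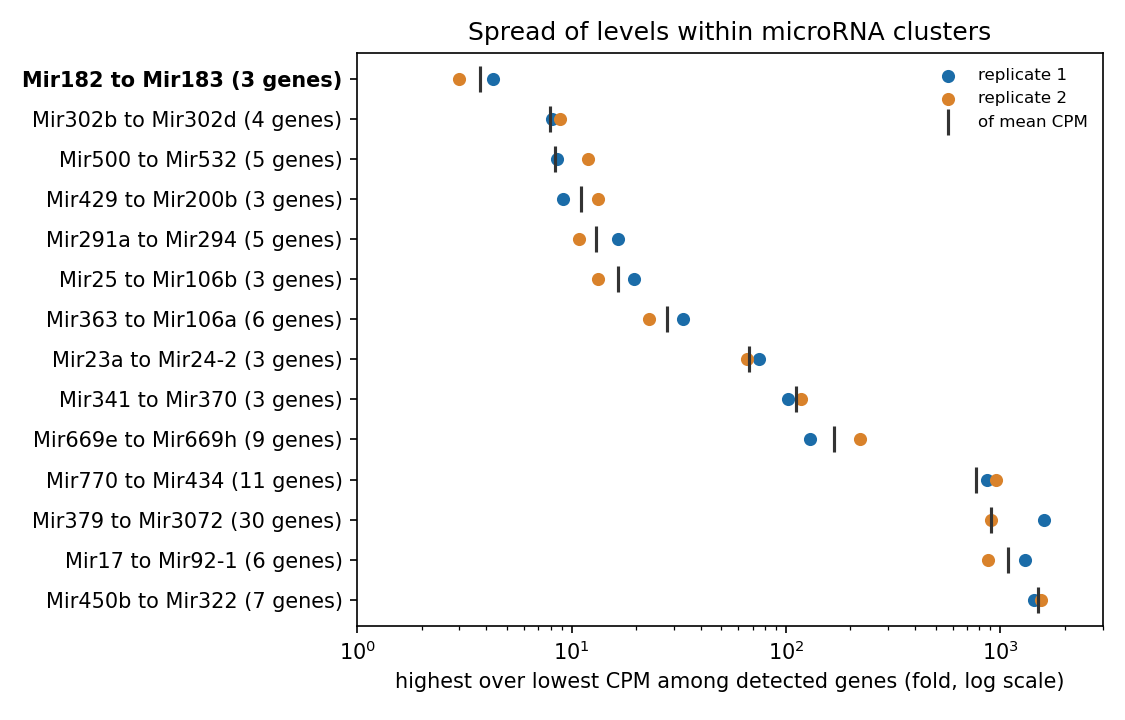
Highest over lowest CPM among the detected genes of each microRNA cluster with 3 or more detected genes, on a log scale. Points are single libraries and bars are the fold of mean CPM. The cluster from Mir182 to Mir183, in bold at the top, is at 4.31 in replicate 1 and 2.99 in replicate 2, and the other 13 lie to its right.

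Around the cluster on chromosome 6, levels varied widely. Within 1 Mb on either side, 5 other microRNA genes were counted. Mir335, in the imprinted gene Mest, averaged 61861 ± 10391 CPM, Mir29a averaged 781 ± 110 CPM, between the means of Mir96 and Mir183, and Mir29b-1 averaged 16.8 ± 4.14 CPM (SD, n = 2). Gm26220 and Gm23049 had 0 counts in both libraries.

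The genes nearest to the members in level were found by the Euclidean distance of log2(CPM + 1) over the 2 libraries, which with so few points measures abundance more than pattern. Nearest to Mir182 was Mir301, at a distance of 0.198, with 2135 CPM in replicate 1 and 1216 CPM in replicate 2, followed by Mir196b and Mir503. Nearest to Mir183 was Mir302b, at 0.0743, with 924 and 993 CPM in replicates 1 and 2, followed by Mir674 and Mir185. Nearest to Mir96 was Mir199b, at 0.0896, with 556 and 413 CPM in replicates 1 and 2, followed by Mir495 and Mir106a. No member was among the 3 nearest genes of another.

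Levels of other microRNAs known from the tissues in which the cluster is active varied widely. The epithelial list of Mir200a, Mir200b, Mir429, Mir200c, Mir141, Mir203 and Mir205 had 7 of 7 genes detected. The sensory cluster held 0.333 ± 0.0751% of assigned counts, and this list held 0.582 ± 0.00129% (SD, n = 2). The sum over the 3 members was thus lower in both libraries than the sum over the 7 genes of the list. Such sums depend on the number of genes, so they do not order the levels of single genes. The most abundant gene of that list was Mir429, at 1776 ± 286 CPM (SD, n = 2), close to the mean of Mir182. Its values, 1574 CPM in replicate 1 and 1978 CPM in replicate 2, lay inside the range of Mir182. Of the 7 genes, 0 were called between the libraries, and their median log2 ratio was -0.05. Over all 454 genes tested, 7.27% were called, so call counts in this list and those below rest on few genes and say little.

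The list of gut and pancreas endocrine microRNAs held 0.219 ± 0.0378% of assigned counts (SD, n = 2), with 2 of 4 genes detected. Mir375, which acts in hormone-secreting islet cells, led it at 2161 ± 381 CPM (SD, n = 2), a level whose range overlapped that of Mir182. Of 3 genes tested between the libraries, 0 were called, with a median log2 ratio of -0.18.

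Sensory and neural microRNAs were much lower than the cluster. The list of 12 counted genes held 0.0505 ± 0.0115% of assigned counts (SD, n = 2), with 6 detected, against 0.333 ± 0.0751% for the 3 members. The values of its most abundant gene, Mir7-1, were 374 CPM in replicate 1 and 237 CPM in replicate 2, below the lowest value of Mir96. Mir204 and Mir211, known from the pigment epithelium of the eye, averaged 28.9 ± 3.71 and 2.13 ± 1.22 CPM (SD, n = 2). The neuronal genes Mir124a-1 and Mir124a-3 had 0 counts in both libraries, and Mir124a-2 had 4 counts in replicate 1 and 0 in replicate 2. Of 7 genes tested between the libraries, 1 was called, Mir7-2, with 137 and 29 counts in replicates 1 and 2. Of the 12 genes, 9 share 20 or more bases with another counted gene, 5 of them among the 6 not detected, so the low counts of this list are uncertain.

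The libraries carried the microRNAs known from liver and blood. The hepatocyte gene Mir122 averaged 32583 ± 2693 CPM, the endothelial gene Mir126a 68747 ± 15986 CPM, the erythroid gene Mir451a 8644 ± 1625 CPM and the myeloid gene Mir223 5010 ± 108 CPM (SD, n = 2). Of 6 striated muscle genes, 3 had 0 counts in both libraries, and each of these shares 20 or more bases with another counted gene. The other 3 were detected: Mir208b averaged 328 ± 4.44 CPM, Mir208a 214 ± 81.1 CPM and Mir206 128 ± 23.3 CPM (SD, n = 2). The list held 0.0670 ± 0.00622% of assigned counts. Some of these markers differed between the libraries, in either direction. None of the genes of the leukocyte, erythroid, endothelial and hepatocyte lists was at 0. The leukocyte list was higher in replicate 1, as Mir182 and Mir96 were and Mir183 was not. It held 1.04% of assigned counts in replicate 1 and 0.812% in replicate 2, with 4 of 4 genes detected and 0 called. Its genes did not move as one. The log2 ratio of replicate 1 over replicate 2 was 0.79 for Mir342, 0.87 for Mir155 and 0.46 for Mir150. For Mir223 it was -0.11. In the same order, the erythroid list held 0.795% and 1.10% with 2 of 2 detected, the hepatocyte list 3.16% and 3.60% with 2 of 2, and the endothelial gene 5.74% and 8.01%. Among these, 1 gene was called, the erythroid Mir144, with a log2 ratio of -1.46. Their part in the levels of the cluster was not tested.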

How the data were processed

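Small RNA under 30 nucleotides was sequenced from 2 pools of embryonic liver. The deposited files hold raw counts for each microRNA gene, as whole numbers, in a column for either strand, one for the strand of the gene and one for the opposite strand. The deposited description names mm10 as the assembly and GENCODE M4 as the annotation. The software for alignment, counting and trimming is not given in the sources used here. The 4 summary classes at the head of each file name no gene and stayed out of library sizes and tests. They held 73.8% of the reads in replicate 1 and 71.0% in replicate 2. Whether the pools came from separate litters is not stated beyond the word biological replicate, so spreads cover these samples only.

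CPM was computed from the same-strand column. Symbols and coordinates came from GENCODE M21, of the same assembly, and 1894 of 1973 counted genes matched. Hairpins for the search of shared runs were M21 transcripts. All 3 members matched RefSeq (GRCm38.p6) sequences. Libraries were compared over the 454 genes with at least 10 summed counts, by a two-sided exact binomial test against TMM effective library sizes (edgeR 4.0.16, R 4.3.3), with 0.5 added to each count for log2 ratios. A call needed an adjusted p under 0.05 and 2-fold. DESeq2 1.42.0 gave alternative size factors. Other work used Python 3.11.15, scipy 1.17.1, numpy 2.4.6 and pandas 2.3.3. The named genes were the members, the 3 genes nearest to each in level, the leading gene of each list and genes that share a 5p seed; the remaining list genes and the clusters named were chosen after their values were seen. The members and lists were chosen with earlier results of these data known.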

Additional observations from a re-analysis of the deposited data

Results flagged for a closer look

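Reads on the strand opposite to Mir183 came to 7 in replicate 1 and 0 in replicate 2. The value of 7 lies above the 3 counts that a count of 0 allows, in a column that the levels do not use. It is 0.229% of the reads at Mir183 counted without regard to strand in that library. Opposite to Mir182 there were 3 reads in replicate 1 and 2 in replicate 2, and opposite to Mir96 there were 0 in both.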

How the results depend on the processing

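Directions, orders and calls of the members were the same under the alternatives that could be run, apart from what follows. Per 1000000 of all reads in the file, unmapped reads included, the mean level was 271 for Mir183, 136 for Mir96 and 504 for Mir182, and the cluster held 0.0911% of all reads; the denominator is larger by construction. Per base of the gene, the share of Mir96 in the cluster was 10.9% and the mean fold between highest and lowest member was 5.16, against 3.65 by counts. Counted without regard to strand, the epithelial list held 0.528% and the cluster 0.303%, against 0.582% and 0.333% on the strand of the gene. The denominator is larger in that column, at 3670308 against 3344673 counts in replicate 1 and 1752390 against 1584499 in replicate 2. The number of genes called between the libraries was 33, against 15 from 100 summed counts, where fewer genes are tested, and 1 with edgeR and an assumed BCV of 0.2. The larger fold of other clusters held per base of the gene in 13 of 13. That alternative and the one without genes sharing bases were chosen after seeing the data. Joined within 2 kb, Mir182 falls outside the cluster, so that comparison could not be made. Leaving out 1 library moved the level of Mir182 between 1313 and 2392 CPM, its share between 46.9 and 62.0%, and the fold between 2.99 and 4.31. No paired analysis was possible because the 2 libraries belong to the same group. Depth limits the members little: the least abundant count was 697.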
